A study of Mus musculus with 8 samples.

Results

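Transcripts of 9 cell surface proteins that are cut by the protease Adam17 were followed in common DC progenitors (CDPs). The members were Tnf, Tnfrsf1a, Tnfrsf1b, Il6ra, Il6st, Notch1, Notch2, App and Spn, chosen by gene symbol as known substrates, and all 9 had a row among the 16119 genes of the count table. CDPs had been flow-sorted from bone marrow of C57BL/6 mice as lineage-negative cells with intermediate c-kit, low Sca1, and both CD115 and Flt3, with about 50000 cells per library and 4 libraries per diet. HFD mice (DIO in the labels) received 60 kcal% fat and are labelled as diet-fed for 16 weeks, and CF mice (DIO-Control) were matched controls on 10 kcal% fat. The methods of the study name males in the C57BL/6J background bought at an age of 16 weeks, and the labels give no mutant allele. Whether a library came from 1 mouse or from pooled mice is not given in the sources used here, so p-values measure the spread between these libraries. The question was whether the transcripts of these proteins differed between the diets, in cells where the study looked at Adam17 itself.

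Adam17 is a membrane-anchored metalloprotease that releases the outer part of other membrane proteins, a step called ectodomain shedding. Shedding turns membrane TNF into the soluble cytokine, removes TNF and IL-6 receptors from the cell and makes soluble decoys or carriers of them. In Notch receptors and App, cutting outside the membrane by this protease or its relative Adam10 leaves a stub that gamma-secretase then cuts within the membrane. Counts of RNA show how much substrate transcript was present and not how much protein was shed.

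The upstream sequences of 4 members are shown, because Tnf, Tnfrsf1b and App went up and down together over the libraries and Notch1 did not follow them. Tnfrsf1a went with these 3 as well, but its window lies in an annotated exon and is not printed. They come from RefSeq on GRCm38.p6, where all 9 members were matched by symbol, and run 5′ to 3′ on the strand of the gene up to its RefSeq start or to the first annotated exon. The windows lie at chr17:35202008-35202257, chr4:145246871-145247120, chr16:85173767-85173957 and chr2:26503825-26504072, all 4 on the minus strand. That of Notch1 lies before its RefSeq start but within the longer GENCODE gene, which begins further upstream. Capitals mark matches on either strand to 3 of the 6 short motifs searched, and the other 3 had no match.
Tnf: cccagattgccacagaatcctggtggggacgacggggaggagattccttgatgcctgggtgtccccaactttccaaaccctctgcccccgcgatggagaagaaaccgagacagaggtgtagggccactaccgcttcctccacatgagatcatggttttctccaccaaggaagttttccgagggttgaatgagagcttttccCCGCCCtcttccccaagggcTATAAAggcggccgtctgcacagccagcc
Tnfrsf1b: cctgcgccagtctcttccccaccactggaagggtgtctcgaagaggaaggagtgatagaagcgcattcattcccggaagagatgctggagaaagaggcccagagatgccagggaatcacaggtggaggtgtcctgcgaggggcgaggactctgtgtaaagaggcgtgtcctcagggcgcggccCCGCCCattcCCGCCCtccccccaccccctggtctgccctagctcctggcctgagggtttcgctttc
App: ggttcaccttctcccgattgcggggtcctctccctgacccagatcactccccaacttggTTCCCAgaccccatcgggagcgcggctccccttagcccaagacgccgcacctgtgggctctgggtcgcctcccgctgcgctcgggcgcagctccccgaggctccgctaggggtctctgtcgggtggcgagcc
Notch1: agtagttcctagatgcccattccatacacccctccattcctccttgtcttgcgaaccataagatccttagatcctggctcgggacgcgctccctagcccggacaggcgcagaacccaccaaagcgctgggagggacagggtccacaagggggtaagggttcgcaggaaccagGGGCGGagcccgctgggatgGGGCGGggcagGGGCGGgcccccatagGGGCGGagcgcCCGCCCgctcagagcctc

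The motifs were an NF-kB consensus, GAGGAAGT (a site of PU.1-like ETS factors), TATAAA (the TATA box), GGGCGG (a GC box), TGANTCA (a site of AP-1) and TGGGAA (a site of RBPJ, the nuclear partner of Notch). None of these overlapped another in the 4 sequences. Tnf had TATAAA 29 bases before its start, which was present in 12.4% of 32851 promoter windows of 250 bases, and 1 GC box 49 bases before it. A GC box was present in 32.7% of the windows. Tnfrsf1b had 2 GC boxes, at 67 and 57 bases, and Notch1 had 5, between 78 and 20 bases before the start. Notch2, which is not printed, also had 5, and Il6ra had 0. Over the libraries, Pearson's r of log2 CPM with Tnf was 0.861 for Notch2 and 0.871 for Il6ra, against 0.842 for Tnfrsf1b. App had TGGGAA 191 bases before its start, a motif found in 21.6% of the windows, and a GC box at 55 bases that lies in an annotated exon and is not printed. The NF-kB consensus was in 1.41%, GAGGAAGT in 2.44% and TGANTCA in 6.75% of the windows, and none of the 9 members had a match to these 3. CG dinucleotides numbered 10 in the 250 bases before the start of Tnf, 23 in App and 16 in Notch1. Notch2 had the most of the members, 34, and Spn the fewest, 3.

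Libraries held between 28203651 and 48409689 counts, of which 11220977 to 14470041 fell on protein-coding genes of the nuclear genome. The members had from 128 counts (Tnf, HFD replicate 4) to 11120 (Notch1, HFD replicate 3). The transcripts of the sort markers were present in all libraries, with 79.4 to 133 CPM of Csf1r (CD115), 34.2 to 53.6 CPM of Kit and 1.37 to 3.25 CPM of Ly6a (Sca1). Flt3 had 88.8 CPM in HFD replicate 1, against 235 to 378 in the other HFD libraries and 227 to 316 in CF. HFD replicate 1 also stood apart in some lists of markers of other cells. The summed level of 15 neutrophil markers was 20860 CPM there, 976.9 to 3639 CPM in the other HFD libraries, 1991 CPM in CF replicate 1 and 6072 to 6684 CPM in the other CF libraries. All 15 neutrophil markers were tested, and none was at 0 in a library. The 6 granulocyte progenitor markers summed to 1172 CPM in HFD replicate 1, 220 to 406 CPM in the other HFD libraries and 331 to 723 CPM in CF. The 8 erythroid markers gave 458 CPM against 79.3 to 127 CPM in all others. The 9 conventional DC markers gave 318 CPM, against 677 to 944 CPM in the other HFD libraries and 878 to 1330 CPM in CF. Monocyte (875 CPM), B cell (107 CPM) and T and NK cell markers (33.4 CPM) lay within the range of the other libraries. At an unadjusted p below 0.05 (edgeR), 3 conventional DC markers were lower in HFD. Higher were 4 of 7 plasmacytoid DC and 5 of 8 B cell markers. All genes had 5.34% lower and 3.22% higher, and no marker was called. Because HFD replicate 1 stood apart, fold changes of the members are given with and without it. Leaving it out does not balance the neutrophil markers, whose sums were then 976.9 to 3639 CPM in HFD and 1991 to 6684 CPM in CF. Without CF replicate 1 as well, the CF sums were 6072 to 6684 CPM.

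Per length, all members were expressed in CDPs, but over a wide range. Spn, the sialomucin CD43 of the leukocyte surface, had the highest level, with a mean of 284 TPM over protein-coding genes (187 to 333 over 8 libraries). Notch2 followed with 248 TPM (186 to 295). Tnfrsf1a, the TNF receptor with a death domain, had 144 TPM (104 to 181), Notch1 had 139 (80.1 to 221) and Il6st, the signalling chain shared by the IL-6 family, 131 (77.8 to 177). Il6ra, the chain that binds IL-6, had 81.0 TPM (57.2 to 96.8), and Tnfrsf1b, the TNF receptor without a death domain, had 76.9 (49.2 to 102). Tnf and App were lowest, with 48.7 TPM (18.7 to 71.9) and 26.7 TPM (7.79 to 55.5). Adam17 had 63.6 TPM (55.3 to 76.6), between Tnfrsf1b and Tnf. Among 11900 protein-coding genes in the table, Spn lay at percentile 96.4 and App at 48.2. Neighbours in this order overlapped in their ranges, except that every library of Notch2 was above every library of Tnfrsf1a. The order rests on the length of merged exons, 12996 bases for App (11 annotated transcripts) and 2591 bases for Tnfrsf1a. In CPM, not divided by length, App averaged 34.7 in HFD and 37.6 in CF. That was close to Tnfrsf1a (35.9 and 39.3) and above Tnfrsf1b (28.9 and 30.5), and Tnf was lowest (6.69 and 9.55). The place of App thus depends on the length used, and other lengths were not tested.

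**Figure D1:**
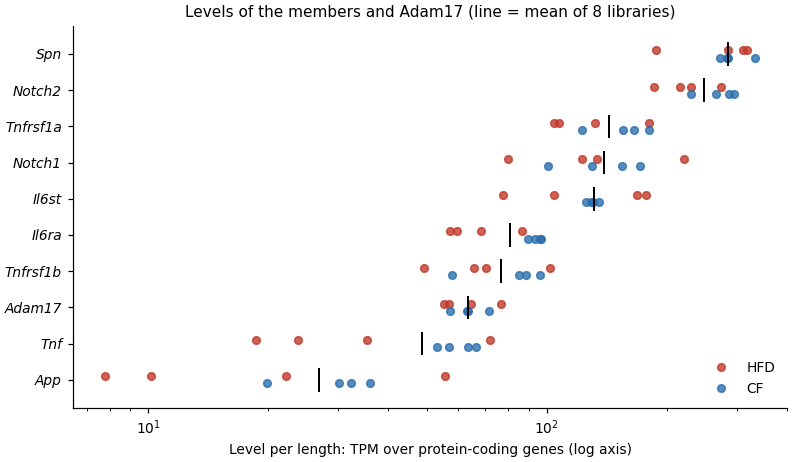
Level per length of the 9 members and Adam17 in TPM over protein-coding genes (log axis), with a point for each of 4 HFD and 4 CF libraries and a line at the mean of all 8. Spn and Notch2 lie highest, and App spans from 7.79 to 55.5 TPM, the widest range in fold.

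Between the diets, no member was called. By edgeR's quasi-likelihood test, 0 of 9 members had an adjusted p below 0.05, where 0.423% of the 15837 genes tested were called. At an unadjusted p below 0.05 there was 1 member, Il6ra, lower in HFD, and 5.34% of all genes were lower at that limit (3.22% higher, 8.56% in either direction). The members are protein-coding, and of the 67 genes called 4 were. Among 11762 protein-coding genes tested, 191 were lower and 437 higher at the unadjusted limit, and 4150 had a log2 fold change below 0. DESeq2, limma voom and a linear model for each gene also called 0 members, with 1 member at an unadjusted p below 0.05 in DESeq2 and in voom and 0 in the linear model. The log2 fold change was below 0 in 7 of 9 members and in 40.3% of all genes, with a median of -0.11 in the members and 0.055 in all genes tested, whereas with library size alone, which moved the latter to 0.25, 2 of 9 members were below 0. All 9 members overlapped between the diets, where the groups were apart in 3.58% of all genes with HFD lower and in 2.58% with HFD higher. The spread was wider in HFD, with a larger SD of log2 CPM than in CF for 8 of 9 members (Spn was the exception), as for 67.2% of all genes.

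**Figure D2:**
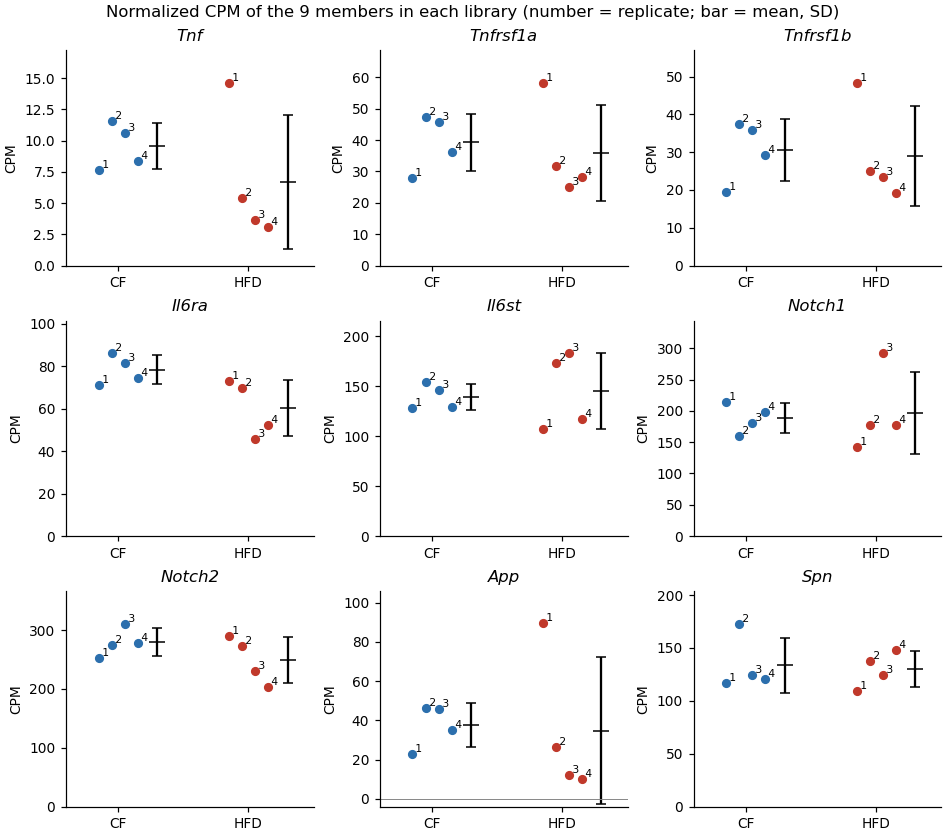
Normalized CPM of each member in the 4 CF and 4 HFD libraries, with replicate numbers beside the points and the mean and SD as a bar. In Tnf, Tnfrsf1a, Tnfrsf1b and App, HFD replicate 1 is above all other libraries, and HFD replicates 2, 3 and 4 are each below at least 3 of the 4 CF libraries.

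Tnf (chr17:35199381-35202007, minus strand, GRCm38 here and for the genes that follow), the ligand, had the largest difference of the members by size with all 8 libraries. Its levels were 14.6, 5.38, 3.62 and 3.11 CPM in HFD replicates 1 to 4, and 7.65, 11.5, 10.6 and 8.37 CPM in CF replicates 1 to 4. The HFD group thus held both the highest library and the lowest 3. HFD averaged 6.69 ± 5.39 CPM and CF 9.55 ± 1.84 CPM (SD, n = 4 each). The log2 fold change was -0.52 ± 0.47 (SE, 95% interval -1.59 to 0.55, adjusted p = 0.86 by edgeR). Without HFD replicate 1, Tnf was called lower in HFD, at -1.24 ± 0.24 (SE, adjusted p = 0.048 by edgeR), and 1.05% of the genes then tested were called lower. Tnf was the 1 member called in that setting. HFD replicates 2 to 4 (3.11 to 5.38 CPM) were all below CF (7.65 to 11.5 CPM), as were 6.64% of all genes. Without replicate 1 of both diets, the log2 fold change was -1.34 ± 0.24 (SE, adjusted p = 0.030 by edgeR), and 2.21% of genes were called lower. Over the 19 alternatives, the adjusted p of Tnf ran from 0.030 to 0.999. With the neutrophil markers as a covariate, it was -0.49 with a standard error of 0.16 (edgeR, unadjusted p = 0.011, adjusted p = 0.15), so it was not called. Lower genes with an unadjusted p below 0.05 made up 7.86% in that fit.

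The TNF receptors had the same library on top as their ligand. Tnfrsf1a (chr6:125349362-125362484, plus strand) had 58.2, 31.8, 25.1 and 28.3 CPM in HFD replicates 1 to 4 and 27.9, 47.5, 45.8 and 36.2 CPM in CF replicates 1 to 4. The diets overlapped, at a log2 fold change of -0.13 ± 0.28 (SE, adjusted p = 0.96 by edgeR). Tnfrsf1b (chr4:145213463-145246870, minus strand) had 48.4, 24.9, 23.3 and 19.1 CPM in HFD and 19.5, 37.4, 35.9 and 29.3 CPM in CF, and a difference of -0.078 ± 0.32 on the log2 scale (SE, adjusted p = 0.98 by edgeR). In both receptors, HFD replicate 1 was the highest of the 8 libraries and CF replicate 1 the lowest of its diet. Without HFD replicate 1, Tnfrsf1a had -0.47 and Tnfrsf1b -0.44 (edgeR, adjusted p = 0.29 and 0.40). Without replicate 1 of both diets, the log2 fold changes were -0.60 for Tnfrsf1a and -0.61 for Tnfrsf1b (edgeR, adjusted p = 0.077 and 0.078), and neither was called. With the neutrophil markers as a covariate they were -0.0042 and 0.071 (edgeR, adjusted p = 0.99 and 0.87). The log2 ratio of Tnfrsf1b to Tnfrsf1a within a library does not depend on scaling between libraries. HFD averaged -0.32 ± 0.19 and CF -0.38 ± 0.095 (SD, n = 4 each), for which an exact permutation test, two-sided, gave p = 0.69 before and after adjustment over 3 ratios. For 4 libraries against 4, the smallest p of this test is 0.029.

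Among the IL-6 receptor chains, Il6ra (chr3:89864059-89913196, minus strand) had the lowest p of the members. It had 73.3, 69.6, 45.8 and 52.3 CPM in HFD replicates 1 to 4 and 71.1, 86.1, 81.8 and 74.7 CPM in CF replicates 1 to 4. Only HFD replicate 1 lay within the CF range. The log2 fold change was -0.38 ± 0.16 (SE, 95% interval -0.75 to -0.015, unadjusted p = 0.043 and adjusted p = 0.55 by edgeR). It was -0.49 without HFD replicate 1 (edgeR, adjusted p = 0.17), and -0.31 with the neutrophil markers as a covariate (standard error 0.11, edgeR, adjusted p = 0.23). In all 19 alternatives, Il6ra stayed below 0, from -0.53 to -0.19, with adjusted p from 0.15 to 0.99.

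Il6st (chr13:112464070-112510086, plus strand) had 107, 174, 183 and 117 CPM in HFD replicates 1 to 4 and 128, 154, 146 and 129 CPM in CF replicates 1 to 4. The HFD libraries lay on both sides of the CF range, and the log2 fold change was 0.059 ± 0.19 (SE, adjusted p = 0.97 by edgeR), or 0.18 without HFD replicate 1 (adjusted p = 0.65). The log2 ratio of Il6st to Il6ra was nearly the same in the 4 CF libraries, at 0.85, 0.84, 0.84 and 0.79, while HFD had 0.55, 1.32, 1.99 and 1.16. HFD averaged 1.26 ± 0.59 and CF 0.83 ± 0.027 (SD, n = 4 each), a difference of 0.43 that an exact permutation test, two-sided, did not call (p = 0.14, and 0.43 adjusted over 3 ratios). In HFD replicates 2 to 4 the ratio was above all CF libraries, and without HFD replicate 1 the difference was 0.66 (exact permutation p = 0.0286, not adjusted, the smallest that 3 libraries against 4 can give). Without replicate 1 of both diets it was 0.67, with an exact permutation p of 0.1, also the smallest for that design.

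The Notch receptors, which carry signals from ligands on neighbouring cells, had the highest mean CPM of the members. Notch1 (chr2:26457903-26516663, minus strand) had 142, 177, 292 and 178 CPM in HFD replicates 1 to 4 and 215, 159, 181 and 198 CPM in CF replicates 1 to 4. Here HFD replicate 1 was the lowest library and HFD replicate 3 the highest. The log2 fold change was 0.065 ± 0.22 (SE, adjusted p = 0.98 by edgeR). Notch2 (chr3:98013527-98150361, plus strand) had 289, 274, 230 and 203 CPM in HFD and 253, 275, 310 and 278 CPM in CF, with HFD replicates 3 and 4 below all CF libraries. For Notch2 the log2 fold change was -0.16 ± 0.14 (SE, adjusted p = 0.84 by edgeR). Without HFD replicate 1, Notch1 had 0.19 and Notch2 -0.24 (edgeR, adjusted p = 0.68 and 0.46). The log2 ratio of Notch2 to Notch1 ranged from -0.34 to 1.03 in HFD and from 0.24 to 0.79 in CF. HFD averaged 0.38 ± 0.59 and CF 0.57 ± 0.26 (SD, n = 4 each), with p = 0.57 by an exact permutation test, two-sided, and 0.69 after adjustment. Exons of Notch2 share 541 bases with Gm42820 on the same strand, so reads there could belong to either. Exons of Notch1 share 1068 bases with 0610009E02Rik on the other strand, and since the strandedness of counting is not given in the sources used here, these counts are uncertain too. Notch1 also shares 414 exon bases with Gm13568 on the other strand. Further overlaps on the opposite strand were 242 exon bases between Il6ra and Gm42809, 113 between App and Gm49227, and 311 between Adam17 and Iah1.

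App (chr16:84949685-85173766, minus strand), the precursor of the amyloid beta peptide, had the largest SD of log2 CPM among the members. Its levels were 89.7, 26.7, 12.3 and 10.3 CPM in HFD replicates 1 to 4 and 22.7, 46.4, 45.8 and 35.3 CPM in CF replicates 1 to 4. The diets overlapped, and HFD held both the highest and the lowest library. HFD averaged 34.7 ± 37.4 CPM and CF 37.6 ± 11.1 CPM (SD, n = 4 each), and the log2 fold change was -0.11 ± 0.65 (SE, 95% interval -1.61 to 1.38, adjusted p = 0.99 by edgeR). Its SD of log2 CPM over the 8 libraries was 1.04, at percentile 98.6 of 4996 protein-coding genes with a mean of at least 4 log2 CPM, and Tnf, whose own mean lies below that limit, had a larger SD than 97.4% of the same genes. Without HFD replicate 1, App had -1.20 (edgeR, adjusted p = 0.19). Without replicate 1 of both diets, App had -1.38 ± 0.35 (SE, adjusted p = 0.0998 by edgeR) and was not called. With the neutrophil markers as a covariate it was -0.17, and its standard error was 0.12 (edgeR, adjusted p = 0.58).

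Spn (chr7:127132232-127137823, minus strand) was steadier, with 109, 138, 124 and 148 CPM in HFD replicates 1 to 4 and 117, 173, 124 and 120 CPM in CF replicates 1 to 4. Most libraries of both diets lay between 109 and 148 CPM, and CF replicate 2 lay above them. The log2 fold change was -0.041 ± 0.16 (SE, 95% interval -0.40 to 0.32, adjusted p = 0.98 by edgeR), and 0.034 without HFD replicate 1 (adjusted p = 0.94). The transcript of Adam17 itself ranged between 37.8 and 50.8 CPM in HFD libraries and between 40.8 and 45.2 CPM in CF libraries (log2 fold change 0.075 ± 0.11, SE, adjusted p = 0.93 by edgeR). The study reported Adam17 as higher in CDPs of HFD mice, by RNA-seq at the level of transcripts and by qRT-PCR. The counts used here are per gene, and single transcripts were not compared.

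**Figure D3:**
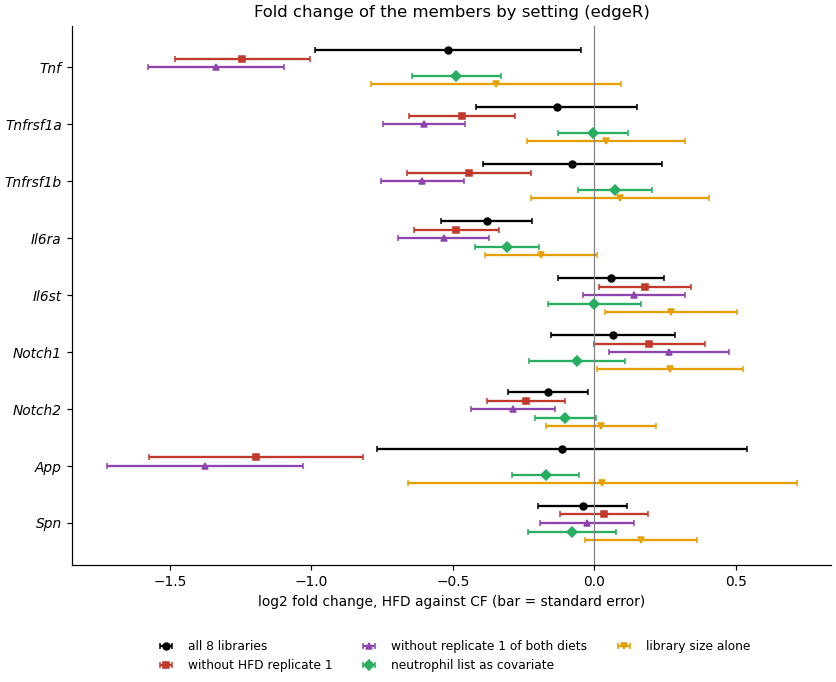
The log2 fold change of each member, HFD against CF, with its standard error from edgeR, in 5 settings. Tnf and App move from -0.52 and -0.11 with all 8 libraries to -1.34 and -1.38 without replicate 1 of both diets, while Il6ra stays below 0 in all 5.

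Several members were seen to follow the neutrophil markers over the libraries. The relation is given as a description with no test, since it was measured on the same 8 libraries in which it had been seen. Between log2 CPM of App and the mean log2 CPM of the 15 neutrophil markers, Pearson's r was 0.986 and Spearman's rho 0.976. Without HFD replicates 1 and 4, the libraries farthest from the median of the markers, r of App was 0.968. For Tnf, r was 0.927 and rho 0.952, and r was 0.866 without those 2 libraries. Tnfrsf1a had r = 0.935 and rho = 0.905, and Tnfrsf1b r = 0.937 and rho = 0.952, with r of 0.933 and 0.846 without the 2 libraries. Notch2 had r = 0.847 and rho = 0.952, although its range was small, and Il6ra r = 0.742 and rho = 0.786. The 4 libraries with most neutrophil marker RNA were also the 4 highest in each of these 6 members, as in 6.29% of all genes.

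The other 3 members had values of r below 0 with all 8 libraries. For Notch1, r was -0.668 and rho -0.571, and r was -0.828 without the 2 libraries. Il6st had r = -0.345 and rho = -0.19, with r of -0.43 without those libraries. Spn had r = -0.285 and rho = -0.262, but its r was 0.38 without them, so its sign turned. Adam17, measured in the same way, had r = 0.296 and rho = 0.0952. With 4 libraries per diet, no correlation was computed within a diet, and the fit with both diet and the neutrophil markers as terms is the one that holds diet fixed. In a bulk sample, fewer cells of a type and less RNA per cell cannot be told apart, and the part of the neutrophil markers in the differences between diets was tested only by the covariate given above.

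**Figure D4:**
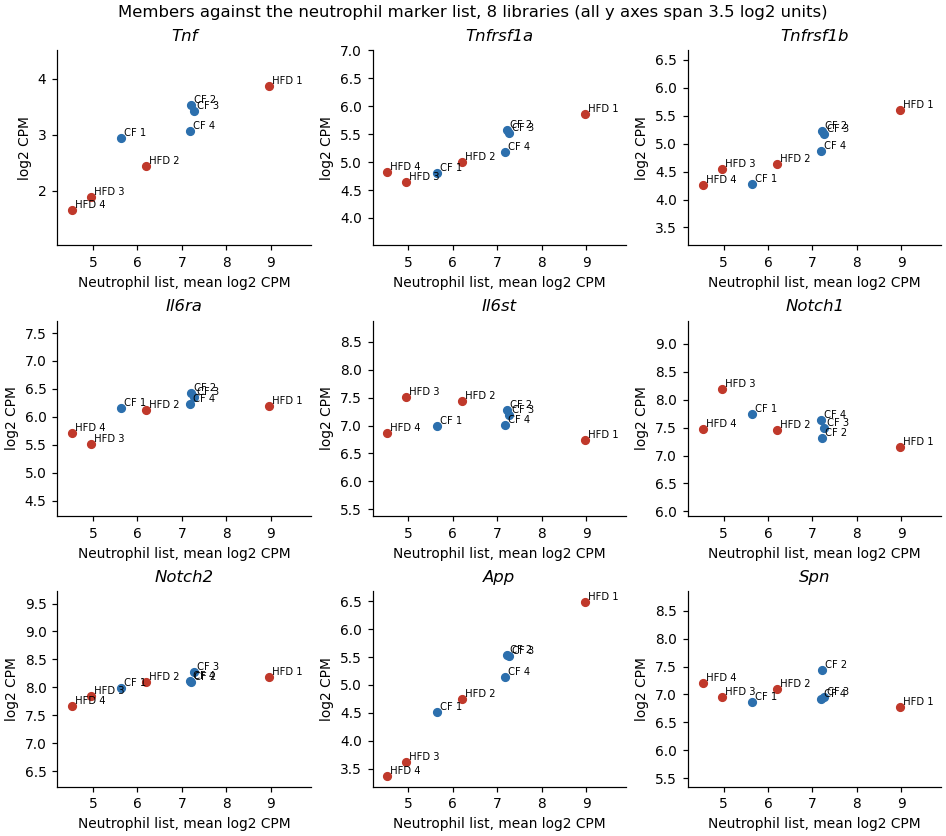
Log2 CPM of each member against the mean log2 CPM of the 15 neutrophil markers in the 8 libraries, with all vertical axes spanning the same log2 range. App, Tnf, Tnfrsf1a and Tnfrsf1b go up from HFD replicate 4 (4.53 on the horizontal axis) to HFD replicate 1 (8.97), and Spn and Il6st do not.

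The genes most like each member were sought among the 4996 protein-coding genes with a mean of at least 4 log2 CPM (Tnf itself lies below this limit), by Pearson's r of log2 CPM over the same 8 libraries, which is a description. For App they were Mtus1 (0.997) and Mcemp1 (0.992), for Tnf Sat1 (0.98) and Klf2 (0.979), and for Tnfrsf1a Mapkapk3 (0.985) and Nfam1 (0.982). Tnfrsf1b was most like Glrx (0.976) and Ppp1r18 (0.966), Il6ra most like Slfn5 (0.957) and Slc26a2 (0.945). Il6st was closest to Crebbp (0.932) and Btk (0.931), Notch1 to Zfp608 (0.968) and Plcg1 (0.964), Notch2 to Kdm2a (0.984) and Vps13c (0.944), and Spn to Parp2 (0.939) and Napsa (0.932).

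Genes around the members were counted in 8 lists of related function. Of the 125 genes tested, edgeR called 0, with 9 at an unadjusted p below 0.05, where 8.56% of all genes were. DESeq2 called 2, Ptprf and Lifr (3.58% of all genes), library size alone 1, Ptprf (0.682%), and limma voom 0. Without HFD replicate 1, edgeR called Ptprf and Lifr higher and Adam8 lower (1.26% of all genes). Without replicate 1 of both diets it called Ptprf higher (1.69) and Adam8 (-1.91), Il1r2 (-2.16), Cd9 (-1.24) and Neurl3 (-1.31) lower, among 2.45% of all genes. With the neutrophil markers as a covariate, those 4 had -0.27, -0.35, -0.019 and -0.32 (edgeR, adjusted p from 0.48 to 0.98), and the genes called were Ptprf (1.24), Traf1 (-0.96) and Cd34 (-0.78), among 4.29%. Of 10 genes tested for the shedding machinery, 6 were higher and 4 lower, with a median log2 fold change of 0.0063. The majority turned without HFD replicate 1, with 3 higher and 7 lower and a median of -0.13. This held in 6 of the 8 lists, whose counts are given in both ways, while the median of all genes was 0.029 without that library. With library size alone, where that median was 0.25, most genes of every list were higher. Adam10, the other main sheddase, had the highest level of this list (185 TPM) and a log2 fold change of 0.25 (0.13 without HFD replicate 1), and Timp3, the tissue inhibitor of Adam17, had 1.55 at 3.24 TPM (edgeR, adjusted p = 0.78 for both). Timp3 had 13.2 CPM in HFD replicate 1, 2.83, 0.94 and 0.27 CPM in HFD replicates 2 to 4 and 1.27 to 1.54 CPM in CF, and without HFD replicate 1 its log2 fold change was -0.14 (edgeR, adjusted p = 0.94). Frmd8, a partner of iRhom proteins, had 64.7 TPM. All 7 subunit genes of gamma-secretase were tested, 6 higher and 1 lower, with a median of 0.074 (2 higher, 5 lower and -0.075 without HFD replicate 1). Ncstn, the subunit that receives the substrate, had 83.3 TPM, and Aph1c had the lowest p, with -0.26 (edgeR, adjusted p = 0.89).

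Another list held 37 genes taken from general knowledge as Adam17 substrates or, as with Cd9, surface partners. Of these, 24 were tested, 15 higher and 9 lower, with a median of 0.076. Without HFD replicate 1, 8 were higher and 16 lower, with a median of -0.13. Their unadjusted p was below 0.05 in 2, both higher. Ptprf, a receptor tyrosine phosphatase, had 16.5, 40.3, 24.6 and 44.3 CPM in HFD replicates 1 to 4 and 12.1, 14.2, 10.3 and 9.41 CPM in CF replicates 1 to 4. Every HFD library was above every CF library, and Ptprf differed by 1.45 ± 0.31 on the log2 scale (SE, adjusted p = 0.097 by edgeR), and by 1.66 without HFD replicate 1 (adjusted p = 0.018). Lag3, an inhibitory receptor, was at 1.96 to 4.83 CPM in HFD libraries and 1.37 to 2.34 CPM in CF libraries (log2 fold change 0.96, adjusted p = 0.30 by edgeR). Beside these, the 7 plasmacytoid DC markers tested summed to 323 CPM in HFD replicate 1, 565 to 761 CPM in the other HFD libraries and 429 to 487 CPM in CF, and their part in these values was not tested. Cd44, an adhesion receptor of leukocytes, had 281 TPM and differed by 0.024 on the log2 scale (adjusted p = 0.99 by edgeR).

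In TNF receptor signalling, 26 genes were tested, 11 higher and 15 lower, with a median of -0.019 (12 higher, 14 lower and -0.066 without HFD replicate 1). Traf1, an adaptor of TNF receptors, was at 1.89 to 3.62 CPM in HFD libraries and 3.05 to 5.43 CPM in CF libraries (log2 fold change -0.82, adjusted p = 0.30 by edgeR). With the neutrophil markers as a covariate, Traf1 was called lower, at -0.96 (edgeR, adjusted p = 0.043). Ikbkb, a kinase that activates NF-kB, differed by -0.23 (adjusted p = 0.60). Casp8 (171 TPM) and Tab2 (146 TPM) were the most abundant. Of 14 genes tested for IL-6 family receptors and signalling, 8 were higher and 6 lower, with a median of 0.028 (5 higher, 9 lower and -0.075 without HFD replicate 1). Lifr, the receptor for LIF that pairs with Il6st, had 44.3, 91.9, 53.7 and 96.9 CPM in HFD and 38.5, 41.8, 42.1 and 37.6 CPM in CF. Its groups were apart, and its log2 fold change was 0.84 ± 0.25 (SE, unadjusted p = 0.0077 and adjusted p = 0.23 by edgeR), and 1.02 without HFD replicate 1 (adjusted p = 0.042). The summed plasmacytoid DC markers given above were likewise lowest in HFD replicate 1 of that diet, and their defining marker Siglech had 13.3, 49.5, 33.0 and 62.2 CPM in HFD replicates 1 to 4 and at most 17.1 CPM in CF. Their part in the values of Lifr was not tested. Tyk2, a Janus kinase, was at 28.8 to 31.6 CPM in HFD libraries and 33.6 to 37.9 CPM in CF libraries, also apart (log2 fold change -0.26, adjusted p = 0.34 by edgeR). Ptpn6, a phosphatase that limits cytokine signals, had 364 TPM, and Jak1 170.4 TPM.

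In the Notch pathway, 27 genes were tested, 15 higher and 12 lower, with a median of 0.0031 (12 higher, 15 lower and -0.035 without HFD replicate 1). Rbpj had 46.7, 63.1, 51.4 and 55.2 CPM in HFD replicates 1 to 4 and 68.1, 66.9, 67.6 and 65.5 CPM in CF replicates 1 to 4, with the groups apart. Its log2 fold change was -0.31 ± 0.11 (SE, unadjusted p = 0.018 and adjusted p = 0.36 by edgeR). The receptor Notch4 had 3.09 TPM and -0.82 (edgeR, adjusted p = 0.73). Itch, a ubiquitin ligase, had the highest level of the list (80.9 TPM). Among relatives and partners of App, 9 were tested, 8 higher and 1 lower, with a median of 0.16 (6 higher, 3 lower and 0.18 without HFD replicate 1). The lowest p was in Appbp2, with 0.18 (edgeR, adjusted p = 0.58), followed by Itm2c, with 0.23 (adjusted p = 0.78). Itm2b was the most abundant, at 799 TPM. The last list held sialomucins, their linkers and Emb, a surface glycoprotein of another family. Of its 9 genes tested, 6 were higher and 3 lower, with a median of 0.067 (4 higher, 5 lower and -0.021 without HFD replicate 1). Emb had -0.26 and Cd164 0.30 (edgeR, adjusted p = 0.49 and 0.54), and Cd24a (789.6 TPM, log2 fold change 0.39, and -0.075 without HFD replicate 1) and Msn (507 TPM) were the most abundant.

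**Figure D5:**
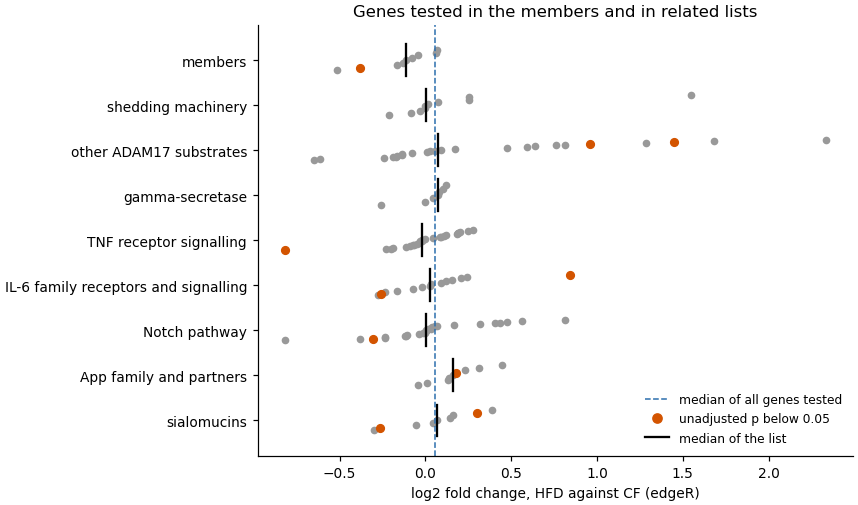
Log2 fold changes, HFD against CF, of the genes tested among the members and in 8 lists of related genes, with the median of each list as a line and the median of all genes tested (0.055) as a dashed line. Coloured points had an unadjusted p below 0.05, and none was called after adjustment.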

How the data were processed

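RNA of sorted CDPs was measured in 8 libraries made with the NuGen Ovation Solo RNA-Seq System. The authors deposited raw counts per gene, made with HISAT2, uniquely mapped pairs and StringTie on GENCODE genes, and the submitters' processing notes name GRCm38. Versions and strandedness are not given in the sources used here. Columns were matched to samples by the sample number in their labels. Of 16119 Ensembl identifiers, 16067 were found in GENCODE vM21 (GRCm38), used for symbols, positions and exon lengths.

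Counts were compared with edgeR 4.0.16 in R 4.3.3. Genes were kept by filterByExpr (282 were left out), normalized by TMM and tested by robust quasi-likelihood, with diet alone in the model. Called genes had a p below 0.05 after Benjamini-Hochberg adjustment over every gene tested. The study had used Ballgown on FPKM, which was not run here, and a gene-wise linear model of log2(CPM + 1) stands among the alternatives. CPM are TMM-normalized, log2 CPM has a prior count of 2, and TPM are counts per kilobase of merged exons scaled to a fixed sum over nuclear protein-coding genes. Ratios were tested by exact two-sided permutation over libraries.

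The alternatives were RLE factors, library size alone, DESeq2 1.42.0, limma 3.58.1 voom, that linear model, no filter, 1 CPM in 4 libraries, protein-coding genes alone, the replicate number as a block, the neutrophil markers as covariate, each library left out in turn and replicate 1 of both diets left out. The members, lists and alternatives were chosen with earlier results of these data known. The rule for named genes took the members, Adam17, the 2 lowest p and the 2 highest levels of each list, and the 2 genes most like each member. Some genes that this rule names are not reported here. Tested on simulated data of this comparison with 15768 genes, edgeR recovered 74.2% of 4-fold, 28.4% of 2-fold and 1.49% of 1.5-fold changes, with 5.48% false among its calls. Figures were drawn with matplotlib 3.10.9.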

Additional observations from a re-analysis of the deposited data

Results flagged for a closer look

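In groups of 4 libraries, 2 of 24 groups of values (9 members and 3 ratios in each diet) held a library far from the other 3, where chance gives about 1 in 20. Spn had 7.43 log2 CPM in CF replicate 2, against 6.87 to 6.96 in the other CF libraries. The log2 ratio of Il6st to Il6ra was 0.788 in CF replicate 4 and 0.84 to 0.846 in the other CF libraries, a gap that is small beside the HFD range.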

How the results depend on the processing

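The count of genes called, 67 with all libraries, moved to 108 with library size alone, 567 in DESeq2, 679 with the neutrophil markers as covariate and 388 without replicate 1 of both diets. It was 0 in the linear model for each gene, with protein-coding genes alone and with the replicate number as a block. With each library left out it ranged from 0 to 200, with 200 without HFD replicate 1, 154 without CF replicate 4 and at most 2 without any of the others. Members called ranged from 0 to 1 with each library left out, and were 1 without replicate 1 of both diets, Tnf each time. Scaling by library size alone shifted the median log2 fold change over all genes from 0.055 to 0.25, and turned it above 0 in Tnfrsf1a (0.041), Tnfrsf1b (0.089), Notch2 (0.024), App (0.028) and Spn (0.16). With the neutrophil markers as covariate, Tnfrsf1b (0.071), Il6st (-7.14e-05) and Notch1 (-0.062) changed sign. With each library left out, Tnfrsf1a ranged from -0.47 to 0.0041, Tnfrsf1b from -0.44 to 0.034, Il6st from -0.071 to 0.18, Notch1 from -0.19 to 0.19, App from -1.20 to 0.17 and Spn from -0.15 to 0.11, and Tnf from -1.24 to -0.31. The differences of the log2 ratios ranged from -0.017 to 0.14 (Tnfrsf1b to Tnfrsf1a), 0.18 to 0.66 (Il6st to Il6ra, with an unadjusted exact permutation p of 0.0286 without HFD replicate 1) and -0.41 to 0.045 (Notch2 to Notch1). Without replicate 1 of both diets these differences were -0.0099, 0.67 and -0.52, and log2 fold changes were -0.60 in Tnfrsf1a, -0.61 in Tnfrsf1b, 0.26 in Notch1, -1.34 in Tnf and -1.38 in App. The cause of these shifts was not tested. Tnf and Il6ra kept their direction in all 19 alternatives.

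Same-numbered libraries did not deviate together (correlation of deviations -0.439 to -0.0779), so the numbers do not pair the libraries, and the block, under which 0 members were called, is given for the count alone. For the ratios, pairing by number gave exact p of 1, 0.25 and 0.625. At 128 to 456 counts, Tnf was the least deeply counted member, and with 4 libraries per diet a 2-fold change was mostly missed in the simulated data.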
